A study of Mus musculus with 20 samples.

Results

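The RNA-seq libraries compared here were 4 of the 20 in the study, all from spleen and lymph node of mice and all given 200 nM IL-2 for 90 min. In 3 of them the RNA came from regulatory T cells (Tregs, replicates 1 to 3), and in 1 from CD8+ T cells. They were taken by their labels for cell type, cytokine and time. No measured value entered this rule, although it was set with earlier results of these data known. The Tregs came from B6-Foxp3EGFP mice, which carry a GFP reporter of Foxp3: CD4+ T cells were isolated with a kit and then sorted for GFP. The CD8+ T cells came from C57BL/6J mice and were isolated with a kit without a sort, while the strain label of every library reads C57BL/6N. Cell type, reporter strain and isolation method therefore changed together, and their effects cannot be told apart. The libraries of the same cells with no cytokine, with IL-2 for 4 h (240 min), and with IL-2-REH for 90 min or 4 h were used where stated. IL-2-REH is a partial agonist, an IL-2 variant with weakened recruitment of the common γ chain.

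IL-2 signals when its β and common γ receptor chains are brought together, which activates the kinases JAK1 and JAK3 and the transcription factor STAT5. The α chain, IL-2Rα (Il2ra), adds no signal of its own but raises the affinity of the complex for IL-2. Tregs are CD4+ T cells that restrain other immune cells, depend on IL-2 from their neighbours and carry IL-2Rα at rest, whereas resting CD8+ T cells, the precursors of cytotoxic cells, carry mainly the β and γ chains. STAT5 dimers are known to bind the palindrome TTCNNNGAA, and Cish, an inhibitor of this pathway, is among the best known genes it switches on.

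That palindrome, which reads the same on both strands, was looked for in the windows from 250 bases before to 50 bases after the annotated starts in RefSeq on GRCm38.p6. A window was found for 31 of the 40 genes on a list of IL-2 and STAT5 targets. Of these genes, 7 (22.58%) held the letters, against 2582 of all 27025 genes with a window (9.55%). On the list of CD8+ lineage and cytotoxic genes 5 of 19 (26.32%) did, and Ifng and Gzmb are on both lists. The shares were 2 of 19 (10.53%) for Treg identity and 2 of 21 (9.52%) for immediate early genes. The stretches below show the matches of 4 of the 7 genes as examples, each written 5′ to 3′ along the gene's strand with the matching letters in capitals. Bcl6, Ifng and Gzmb are the others, and Bcl6 held more matches than either. A match describes the letters of the window and is not a measured binding site.
Cish (chr9:107296656-107296682, + strand, spanning the annotated start): gttTTCCTGGAAagTTCTTGGAAatct
Emp1 (chr6:135362802-135362828, + strand): acaacagggTTCTTTGAAttgatggct
Emp1 (chr6:135362900-135362926, + strand): ccagactgaTTCATAGAAactccttta
Socs3 (chr11:117969503-117969529, - strand): aaaccagccTTCTTAGAAgggaggggg
Lta (chr17:35205486-35205512, - strand): ccatcactcTTCAGGGAAccaggcttc
Lta (chr17:35205350-35205376, - strand): cgactccctTTCCCAGAAcgcagtagt
Cish alone among them held 2 matches within a single stretch, and the first of the pair begins at the annotated start base. Counted from the annotated start, the matches begin at -120 and -22 in Emp1, at -154 in Socs3 and at -152 and -16 in Lta.

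Exonic reads assigned to genes numbered between 41897956 and 50405633 in the 4 libraries, and between 20201392 and 63903764 over all 20. Levels are given as RPKM, read counts corrected for the length of the transcript and the depth of sequencing, and no 2 libraries held identical values. The Treg libraries were not alike in every respect. Replicate 3 held more RNA of myeloid and red blood cells than the rest: the summed RPKM of 15 myeloid markers was 159.2 there against 15.5 and 60.8 in replicates 1 and 2 and 36.9 in the CD8+ library, and that of 9 erythroid markers was 140.3 against 8.69, 13.7 and 9.45. Xist was at 50.2 RPKM in replicate 2 and at or below 0.0251 in the other 3. The paper lists mice of both strains as female. Ddx3y, Eif2s3y, Kdm5d and Uty, which lie on the Y chromosome, nonetheless each reached a mean of at least 1 RPKM over the cell types. None of them was counted as higher or lower in Tregs by the rule given below. Whether the libraries came from mice of different sex, or from males, was not tested. Of the unstimulated libraries used further on, Treg replicate 1 stood apart from replicates 2 and 3, with Crem at 229 RPKM against 7.01 and 7.34 and Stat5a at 145 against 29.8 and 24.2. Of 39 IL-2 and STAT5 targets, 5 (Bcl6, Crem, Gls2, Pmepa1 and Ramp3) were more than 2-fold higher in it than in both others, and 7, Lta and Socs2 among them, were more than 2-fold lower.

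The markers that define the cells were on the side of the labels. Foxp3, the master regulator of Tregs (chrX:7579676-7595243), was at 252, 146 and 126 RPKM in the Treg libraries and at 0.999 in the CD8+ library. Cd4 was at 99.8, 109 and 83.1 against 0.507. Cd8a, the α chain of the CD8 coreceptor (chr6:71373427-71379171), was at 0.158, 0.141 and 0.498 against 165.2, and Cd8b1, its β chain, at 6.49, 4.52 and 4.93 against 213. No Treg library overlapped the CD8+ library in any of these genes, which the sort and the isolation kits themselves select. Reads of Foxp3 could include those of Ccdc22 and Flicr, which overlap it, as the counting is not stated to use strand.

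A gene was counted as higher or lower in Tregs when the log2 ratio of RPKM + 1 to the CD8+ library was past 1, a 2-fold difference, in all 3 Treg libraries. Of 10159 genes with a mean of at least 1 RPKM over the 2 cell types, 628 (6.18%) were higher in Tregs and 221 (2.18%) were lower, or 849 (8.36%) in either direction. The counts for gene lists below stand beside these shares. A stricter ratio past 2 left 178 (1.75%) and 46 (0.453%), together 2.2%. Pairs of Treg libraries differed from each other by as much in 388 genes (replicates 1 and 2), 589 (replicates 1 and 3) and 107 (replicates 2 and 3), whereas single Treg libraries differed from the CD8+ library in 1495, 1289 and 1285. The ratio nearest the CD8+ level was 1.00063 in the last gene counted as higher and 0.998 in the first left out, and -1.00211 and -0.987 on the lower side. The CD8+ cells gave 1 library, so no spread was measured on that side, and an exact permutation test of 3 values against 1 cannot go below p = 0.5 (two-sided). The edgeR quasi-likelihood test was fitted to all 20 libraries by group. Each CD8+ group has 1 library, so its spread comes from the 15 Treg libraries alone. It assumes that the lone CD8+ library varies as they do. With it, 653 of 16399 genes (3.98%) were higher and 296 (1.8%) were lower at a Benjamini-Hochberg adjusted p under 0.05, among them 369 of the 628 and 153 of the 221. Fitted to the 4 libraries alone, edgeR called 813 (5.58%) higher and 344 (2.36%) lower of 14582, and DESeq2 over 20 libraries 1114 (7.88%) and 464 (3.28%) of 14135. In bulk RNA, fewer cells that express a gene and less of its RNA per cell cannot be told apart.

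**Figure D1:**
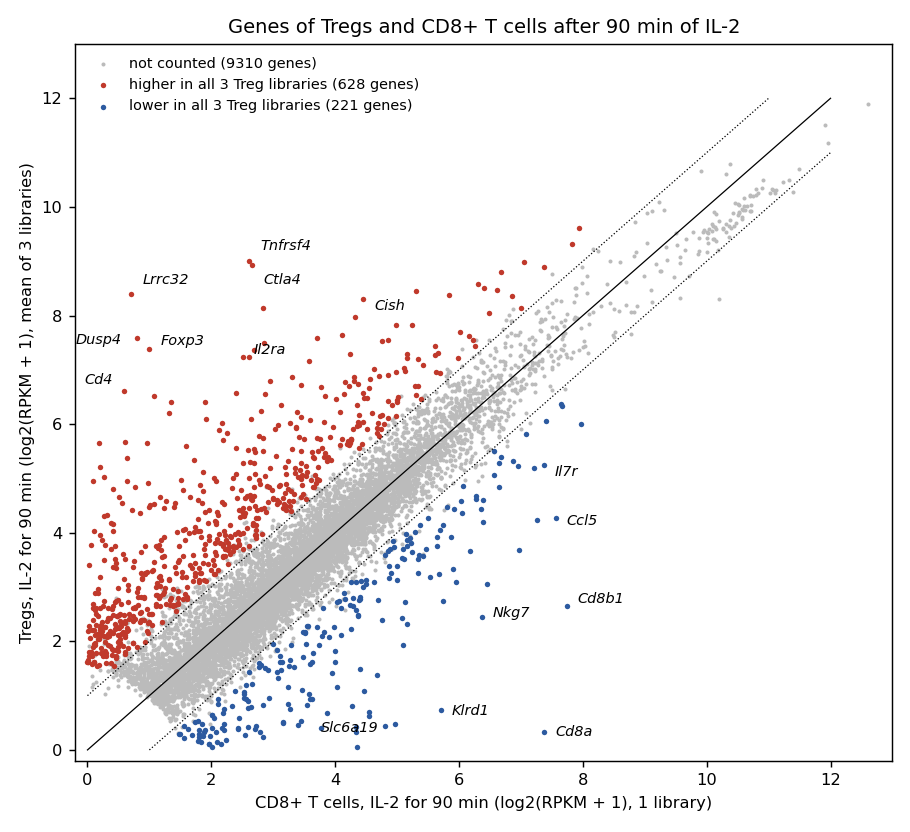
Level of each gene in CD8+ T cells (x axis, log2(RPKM + 1), 1 library) and in Tregs (y axis, mean of 3 libraries) after 90 min of IL-2, with equal levels on the solid line and 2-fold differences on the dotted lines. The 628 genes higher in all 3 Treg libraries are red and the 221 lower ones blue; Lrrc32, Foxp3 and Tnfrsf4 lie far above the line and Cd8a and Cd8b1 far below it.

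Genes of Treg identity were 5 of the 10 with the highest ratios among counted genes that reached 5 RPKM. Of 27 such genes measured, 25 were higher in Tregs, none was lower, and the median log2 ratio was 3.76 against -0.03 over all 10159 genes; 24 of the 25 also passed the edgeR test over 20 libraries, the exception being Klrg1. Lrrc32 (GARP, which displays latent TGF-β on the surface; chr7:98489305-98501831) had the highest ratio of them. It was at 366, 336 and 304 RPKM in Tregs and 0.633 in CD8+ T cells, 529-fold higher by the mean. Ctla4, an inhibitory receptor that competes for CD80 and CD86, was at 386, 589 and 498 against 5.32. Every Treg value of these genes lay far above the CD8+ value, and the Treg libraries differed among themselves by less than 2-fold.

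Among the transcription factors of the same list, Ikzf2 (Helios) was at 67.6, 65.8 and 58.0 RPKM against 3.51. Ikzf4 (Eos), a partner of Foxp3 in repression, was at 69.3, 55.3 and 55.1 against 9.29. Plagl1, a zinc finger factor, was at 39.6, 27.9 and 27.9 against 0.197. All 3 factors were thus present above 25 RPKM in every Treg library, and Ikzf4 was the one with the highest level in CD8+ T cells. Of the secreted and surface products, Il10 was at 11.1, 19.5 and 17.0 against 0.0771 and Itgb8, an integrin chain that activates TGF-β, at 35.3, 28.1 and 27.04 against 0.0651. Areg, an epidermal growth factor family ligand involved in tissue repair, was at 11.9, 15.5 and 10.9 against 0.0360. The 2 genes of the list that were not counted were Nt5e (CD73), at 117, 104 and 127 against 71.2, and Itgae (CD103), at 13.3, 14.4 and 13.6 against 12.8. Both lay above the CD8+ level in all 3 Treg libraries, by less than 2-fold. Foxp3 and Cd4, which the isolation selected, are on this list.

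Outside the Treg list, the highest ratios included Dusp4, a phosphatase of MAP kinases, at 189.8, 227 and 160.4 RPKM against 0.747, and Gdpd3, a lysophospholipase D, at 145, 70.1 and 73.7 against 1.10. Maf, a transcription factor of Il10-producing T cells, was at 60.1, 50.7 and 40.9 against 0.521. All 3 are counted genes, for which the rule itself excludes overlap between the cell types.

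**Figure D2:**
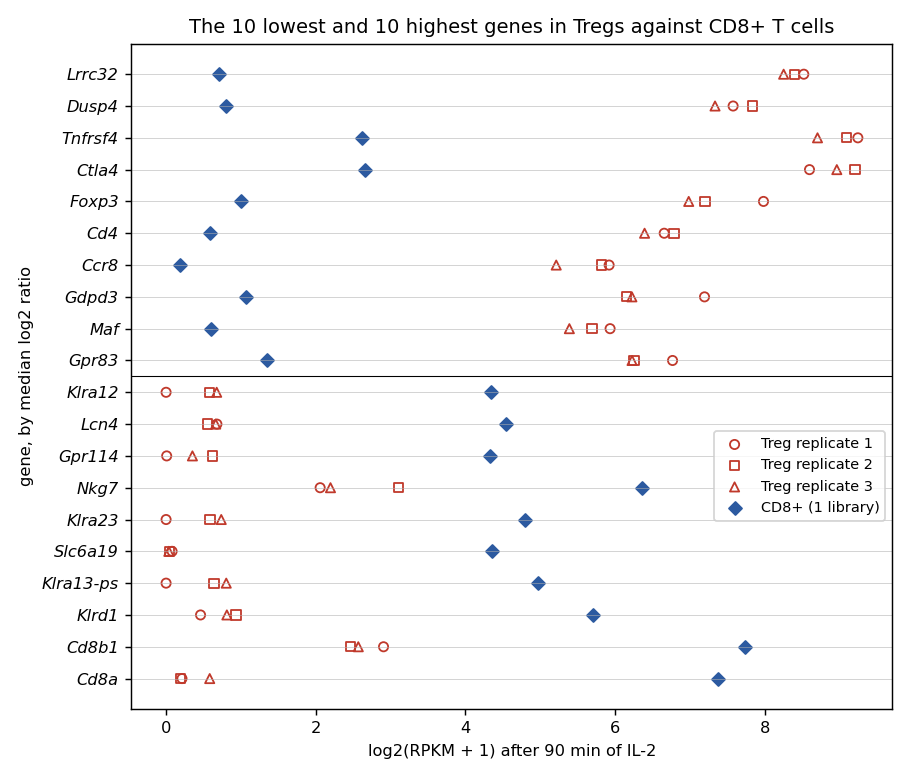
Levels (x axis, log2(RPKM + 1)) in each of the 3 Treg libraries (open red symbols) and in the CD8+ library (blue diamonds) for the 10 genes with the highest and the 10 with the lowest median log2 ratio among counted genes reaching 5 RPKM (y axis). In each of the 20 genes the Treg values lie together, and the rule for counting requires them to lie apart from the CD8+ value. Replicate 1 is the lowest Treg library for the 3 Klra genes, where it is at 0.

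CD8+ lineage and cytotoxic genes were the reverse, Cd8a and Cd8b1, which the kits select, among them. Of 24 measured, 20 were lower in Tregs and none was higher, with a median log2 ratio of -2.39; 15 of the 20 also passed the edgeR test over 20 libraries. Runx3, which silences Cd4 in the CD8+ lineage, was at 24.8, 17.9 and 19.4 RPKM in Tregs and 59.2 in CD8+ T cells. Its CD4+ lineage counterpart Zbtb7b (ThPOK) was at 8.70, 6.58 and 5.70 against 0.760. Eomes, a T-box factor of memory and effector CD8+ T cells, was at 0.463, 0.967 and 1.02 against 8.48. The levels of Runx3 and Zbtb7b were therefore ordered oppositely in the 2 cell types, and Runx3 differed by less than 4-fold.

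Nkg7, a protein of cytotoxic granules, was at 3.17, 7.60 and 3.58 RPKM against 81.4. The chemokine gene Ccl5 was at 13.3, 29.5 and 15.7 against 188. Prf1 (perforin) was at 0.604, 2.26 and 1.14 against 15.3. Replicate 2 was the highest Treg library for each of the 3, still several fold below the CD8+ library. Gzma (granzyme A) was at 0.459, 6.12 and 4.31 against 33.3 and did not pass the edgeR test (adjusted p = 0.346, edgeR, 20 libraries). Genes of 4 effector products were not counted. Ifng was at 0.591, 7.21 and 2.70 against 3.25, Gzmb at 14.2, 8.62 and 5.50 against 18.3, and Fasl at 4.57, 14.9 and 12.4 against 14.3. Ccl4 was at 1.08, 2.01 and 1.13 against 3.99. For Ifng and Fasl the CD8+ value lay between the Treg values, while it was above them for Gzmb and Ccl4.

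Among receptors shared with NK cells, Klrg1, which Tregs of tissues also carry, was counted as higher in Tregs, at 22.2, 9.89 and 5.38 RPKM against 1.30, and others were lower. Klrd1 (CD94; chr6:129588092-129598775) was at 0.376, 0.909 and 0.756 RPKM against 51.4, and Klra13-ps, Klra23 and Klra12 were at 30.4, 26.9 and 19.3 in CD8+ T cells against no more than 0.746 in any Treg library. The Klra genes are near-identical copies, and the paper states that only uniquely mapped reads were kept. Reads shared by the copies may thus be lost, so their separate values are uncertain. The summed level of 8 NK cell markers was 54.6 RPKM in the CD8+ library and between 1.34 and 11.2 in the Treg libraries; Gzma and Eomes, which CD8+ T cells express too, are among them. Ncr1, a marker of NK cells proper, was at 1.89 RPKM in the CD8+ library and 0.0212, 0.699 and 0.394 in Tregs, and Klrb1c at 1.31 and 0.106, 1.14 and 0.545. The part of NK cells in these differences was not tested. Slc6a19, a transporter of neutral amino acids (chr13:73679745-73700780), was at 19.5 RPKM in CD8+ T cells and at most 0.0572 in Tregs.

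The IL-2 receptor differed chiefly in its α chain. Il2ra was at 175, 151 and 127 RPKM in Tregs and 4.71 in CD8+ T cells, 31.98-fold higher by the mean (151 ± 24.1, SD, n = 3) and past the edgeR test (adjusted p = 7.98e-05, edgeR, 20 libraries). Il2rb, the β chain, was at 403, 308 and 239 against 188. Il2rg, the common γ chain, was at 222, 236 and 201 against 188. Both signalling chains were higher in each Treg library than in the CD8+ library, yet neither by 2-fold in all 3, and for Il2rg the difference of the mean was smaller than the range of the Treg libraries.

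Of the 13 genes of the receptor and its signalling, 5 were higher, 1 was lower and 7 were neither, with a median log2 ratio of 0.74. The kinase genes were not counted: Jak1 was at 135, 150.3 and 157.8 RPKM against 193, and Jak3 at 19.7, 27.9 and 16.5 against 11.3. Stat5a was at 127, 113 and 114 against 25.1. Stat5b was at 137, 123 and 111 against 48.3. The 3 Treg libraries agreed closely for both, at more than 2-fold the CD8+ level. Stat3 was counted as higher as well, with a median log2 ratio of 1.80. None of these 3 STAT genes passed the edgeR test over 20 libraries (adjusted p = 0.185 for Stat5a, 0.244 for Stat5b and 0.112 for Stat3), and all 3 passed it when only the 4 libraries of the comparison were fitted. Ptpn6 (SHP-1), a phosphatase that dampens cytokine and antigen receptors, was the gene counted as lower, at 11.4, 13.4 and 11.5 against 33.1; its adjusted p over 20 libraries was 0.212 (edgeR).

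Of 40 targets of IL-2 and STAT5, 20 were higher in Tregs, 1 (Prf1) was lower and 19 were neither, with a median log2 ratio of 1.47; 12 of the 20 passed the edgeR test over 20 libraries. The list includes Ramp3 and Gls2, which the paper names as regulated by IL-2 in Tregs of this series. Both are among the genes counted as higher, so the counts for this list are not independent of these data. Cish, whose window carries the paired match shown above, was at 238, 262 and 187 RPKM in Tregs and 30.6 in CD8+ T cells. Socs2, of the same family of feedback inhibitors, was at 48.9, 35.2 and 35.4 against 2.30. Socs1 was at 119.8, 67.9 and 39.1 against 36.2, and Socs3 at 95.4, 78.8 and 86.9 against 44.7. Cish and Socs2 were separated from the CD8+ library by several fold, while the Treg values of Socs1 ran down to near the CD8+ level and Socs3 was higher in each Treg library by about 2-fold.

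Ecm1, a secreted matrix protein induced by IL-2 in Tregs, was at 145, 177 and 173 RPKM against 5.45. Nfil3, a basic leucine zipper factor, was at 90.6, 101 and 91.1 against 4.29. Of the survival genes, Bcl2l1 (BCL-XL) was at 34.1, 33.7 and 18.6 against 6.61 and was counted. Bcl2, a further inhibitor of cell death, was at 25.6, 38.6 and 28.8 against 67.5, below the CD8+ library in all 3 and not by 2-fold in each. Myc, a driver of growth, was at 53.8, 148 and 92.4 against 32.3; replicate 1 kept it from being counted. Lta (lymphotoxin α) and Tnf, cytokine genes of the TNF family, were at 71.0, 46.6 and 35.3 against 33.4 and at 16.9, 16.6 and 23.3 against 14.9. Their levels in the 2 cell types at this time thus lay within about 2-fold. Emp1, a membrane protein with matches in its window, was at 5.31, 5.05 and 9.42 against 10.3.

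Receptors of the TNF superfamily, which carry survival and costimulatory signals, were higher or not counted. Of 12 TNF receptors measured, 6 were higher and none was lower, against 6.18% and 2.18% of all genes. Their median log2 ratio was 1.61. Tnfrsf4 (OX40) was at 605, 544 and 416 RPKM in Tregs and 5.12 in CD8+ T cells, although its locus overlaps Sdf4. Tnfrsf9 (4-1BB) was at 560.4, 202 and 194 against 6.15, with replicate 1 more than 2-fold above replicates 2 and 3. Tnfrsf18 (GITR) was at 512, 394 and 278 against 78.0, so it was also well expressed in CD8+ T cells. Tnfrsf14 and Tnfrsf26 had median log2 ratios of -1.08 and -1.43 and were not counted, as replicate 1 was within 2-fold; 2 TNF receptors were counted as lower when the libraries were centred on their medians or scaled by edgeR's TMM or DESeq2's size factors. Among 10 TNF ligands, Cd40lg, Tnfsf11 and Tnfsf4 were higher and none was lower. Cd40lg, the ligand that licenses B cells, was at 8.63, 36.1 and 23.5 against 0.794 and missed the edgeR test over 20 libraries (adjusted p = 0.0763).

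Of 17 costimulatory and inhibitory receptors, 13 were higher in Tregs and none was lower, with a median log2 ratio of 2.58; 11 of the 13 passed the edgeR test over 20 libraries. Icos, a costimulator of the CD28 family, was at 219.5, 200.4 and 181 RPKM against 16.3. Pdcd1 (PD-1) was at 128, 57.5 and 41.7 against 2.76. Tigit, an inhibitory receptor for CD155, was at 245, 107 and 109 against 10.9. Replicate 1 was the highest Treg library for all 3 and more than 2-fold above replicates 2 and 3 for Pdcd1 and Tigit. Cd83 was at 72.0, 121 and 67.7 against 2.73. The 4 genes not counted were Havcr2, Cd226, Cd96 and Cd44; for Cd226, which competes with Tigit for its ligand, the values were 7.88, 12.9 and 10.2 against 13.1.

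Transcription factors went both ways, beside 6.18% higher and 2.18% lower among all genes. Of 37 measured, 17 were higher, 5 were lower (Runx3, Eomes, Tbx21, Tcf7 and Themis, the last a T cell adaptor kept on the list) and 15 were neither, with a median log2 ratio of 0.55. Irf4, a factor induced by antigen receptor signals, was at 31.4, 82.7 and 85.0 RPKM against 9.28. Gata3 was at 53.3, 57.9 and 47.1 against 6.09. Prdm1 (Blimp-1) and its antagonist Bcl6 were both low and both higher in Tregs, Prdm1 at 5.33, 4.09 and 5.12 against 0.820 and Bcl6 at 9.10, 9.31 and 7.37 against 0.898. Bcl6 did not pass the edgeR test over 20 libraries (adjusted p = 0.146). Ets1, Ikzf1 and Satb1 were not counted; Ets1 was at 328, 329 and 332 against 235.

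Of 17 genes of quiescence and lymph node homing, 1 (Foxo1) was higher, 4 (Klf3, Tcf7, Il7r and Actn1) were lower and 12 were neither, with a median log2 ratio of -0.34; Foxo1 was no longer counted under the 3 other scalings of the libraries. Tcf7 (TCF-1), a factor of naive and memory T cells, was at 51.9, 71.7 and 68.3 RPKM against 249. Il7r, the IL-7 receptor α chain whose low level is a known mark of Tregs, was at 32.2, 47.7 and 32.9 against 164.1. Ccr7, which guides cells into lymph nodes, was not counted, at 289, 396 and 237 against 179. Of 22 other cytokine receptors, Il1r2 and Tgfbr1 were higher, Il7r and Il12rb2 were lower and 18 were neither. For both lists the shares over all genes were 6.18% higher and 2.18% lower. Il1r2, a decoy receptor for IL-1, was at 23.5, 15.6 and 18.7 against 0.246.

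Of 20 chemokine receptors and integrins, 8 were higher and none was lower, against 6.18% and 2.18% of all genes. Their median log2 ratio was 0.89. Ccr8, a receptor of Tregs in skin and tumours, was at 59.5, 55.2 and 36.1 RPKM against 0.137. Ccr4 was at 54.5, 42.1 and 29.1 against 0.557 and Ccr6 at 25.8, 17.3 and 11.02 against 0.303. All 3 were thus nearly silent in the CD8+ library. Cxcr3, a receptor of type 1 effector cells, was at 28.6, 7.64 and 9.57 against 20.7, with the CD8+ value inside the range of the Treg values.

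Immediate early genes are those that antigen receptor and stress signals switch on within minutes. Of 25 measured, 15 were higher in Tregs at 90 min, none was lower and 10 were neither, with a median log2 ratio of 2.34; 8 of the 15 passed the edgeR test over 20 libraries. Fos was at 43.7, 60.4 and 51.1 RPKM against 3.54. Fosb was at 33.3, 59.9 and 53.1 against 2.01, and Junb at 282, 439 and 289.9 against 56.3. These subunits of AP-1 are counted genes, so the rule itself sets the cell types apart in them. Nr4a1, an orphan nuclear receptor that reports antigen receptor signals, was at 192, 498 and 321 against 20.9, and Nr4a3 at 122, 405 and 321 against 19.0. Replicate 1 was the lowest Treg library for both. The 3 Nr4a genes missed the edgeR test over 20 libraries (adjusted p = 0.103 for Nr4a1, 0.221 for Nr4a2 and 0.338 for Nr4a3). Dusp2 was at 32.5, 40.8 and 34.1 against 64.2 and Ier3, a regulator of cell survival, at 2.60, 1.99 and 2.201 against 4.24. For both the CD8+ value lay above all 3 Treg values, and neither was counted.

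Of 19 genes of the T cell receptor and its proximal signalling, 3 (Cd2, Cd5 and Cd6) were higher, 1 (Thy1) was lower and 15 were neither, against 8.36% of all genes counted in either direction, with a median log2 ratio of 0.26; Thy1 was no longer counted with TMM scaling. Cd3e was at 133, 115 and 159.5 RPKM against 153 and Lck at 105, 148 and 134 against 181. Cd5, a brake on antigen receptor signals whose level follows their strength, was at 98.4, 95.6 and 69.5 against 15.2. Of 25 genes of DNA replication and mitosis, 1 (Ccne1) was lower, against 2.18% of all genes, and 24 were neither. Their median log2 ratio was 0.32, with values from -1.41 to 0.75. Mki67 (Ki-67) was at 6.35, 9.09 and 6.29 against 4.37. None of the 2 B cell, 10 myeloid or 6 erythroid genes that reached the minimum level was counted, though S100a8 was at 50.2 in Treg replicate 3 and at or below 1.66 in the other 3 libraries.

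**Figure D3:**
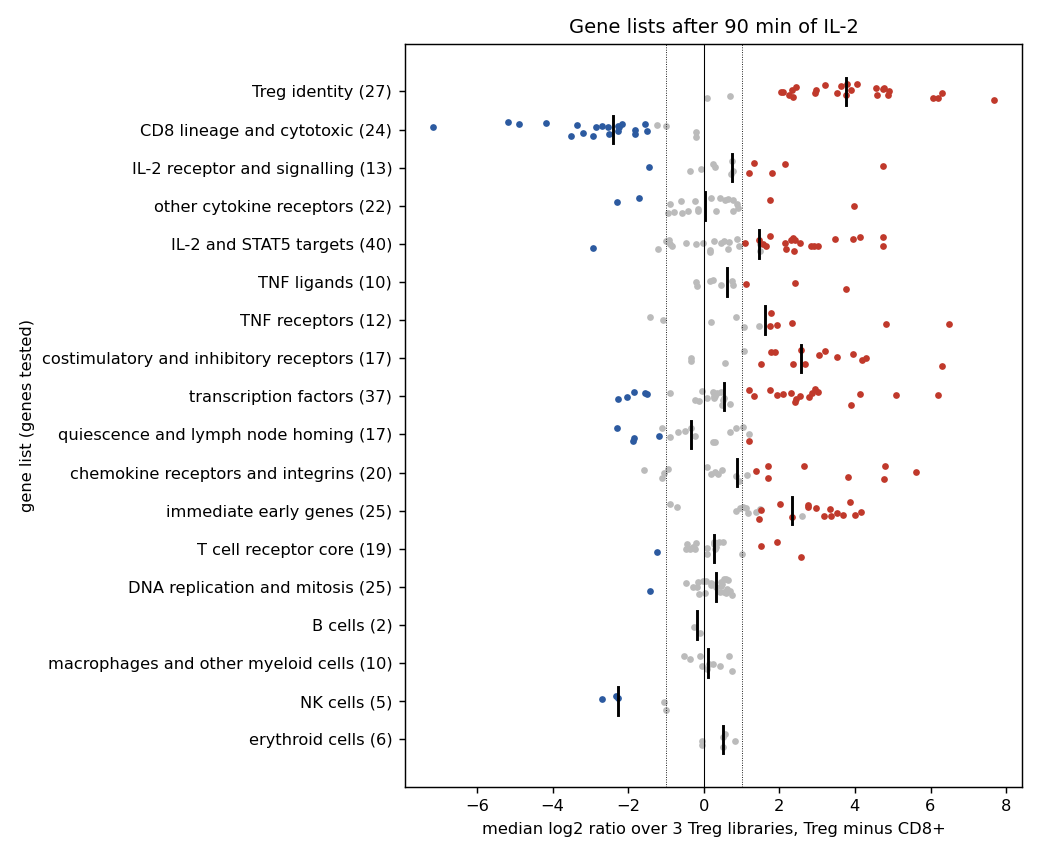
Median log2 ratio of each gene over the 3 Treg libraries against the CD8+ library (x axis) by gene list (y axis, with the number of genes tested), with counted genes in red (higher) or blue (lower), the others grey, list medians as black bars and 2-fold as dotted lines. The bars of Treg identity (3.76), costimulatory and inhibitory receptors (2.58) and immediate early genes (2.34) lie farthest right, and those of CD8 lineage and cytotoxic genes (-2.39) and NK cell genes (-2.27) farthest left.

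The levels at 90 min hold both what the cells carried beforehand and what changed during 90 min with IL-2. The unstimulated libraries of the same cell types were therefore compared by the same rule. No library was kept for 90 min without cytokine. In every change with IL-2 given here and below, effects of IL-2 and of time after isolation therefore cannot be told apart. Of 10530 genes tested, 410 (3.89%) were higher in unstimulated Tregs and 181 (1.72%) were lower, together 5.61%; the split was 418 against 291 with DESeq2's size factors and 352 against 246 with libraries centred on their medians. Of the 628 genes higher at 90 min, 599 were tested before IL-2. Of the same 628, 324 (51.6%) were counted as higher before IL-2, which is 79% of the 410. Of the 221 lower genes, 209 were tested before IL-2 and 105 (47.5% of the 221) were lower, 58% of the 181. These shares rest on unstimulated Treg replicate 1, which stood apart. Without replicate 1, 576 genes were higher and 199 lower before IL-2, and the overlap was not recounted. Requiring fewer libraries can only add genes. No gene was counted in opposite directions at the 2 times.

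The change with IL-2 was then taken within each same-numbered Treg pair and compared with the change in the CD8+ pair. The pairs share only a number, as no label ties them to one mouse. Of 10402 genes, 64 (0.615%) had a log2 change more than 1 higher in all 3 Treg pairs than in the CD8+ pair, and 30 (0.288%) more than 1 lower, together 0.904%. Without replicate 1, whose unstimulated library stood apart, the counts were 238 and 188. Changes past 2-fold in all 3 Treg pairs were rises in 53 genes (0.51%) and falls in 9 (0.0865%), in pairs 2 and 3 alone 359 (3.45%) and 648 (6.23%), and in the single CD8+ pair rises in 283 (2.72%) and falls in 455 (4.37%). Counts over pairs 2 and 3 were added after the data were seen, and requiring fewer pairs can only add genes. The CD8+ figures carry no replicate and the Treg figures require all their pairs at once, so these numbers are not a comparison of response size.

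**Figure D4:**
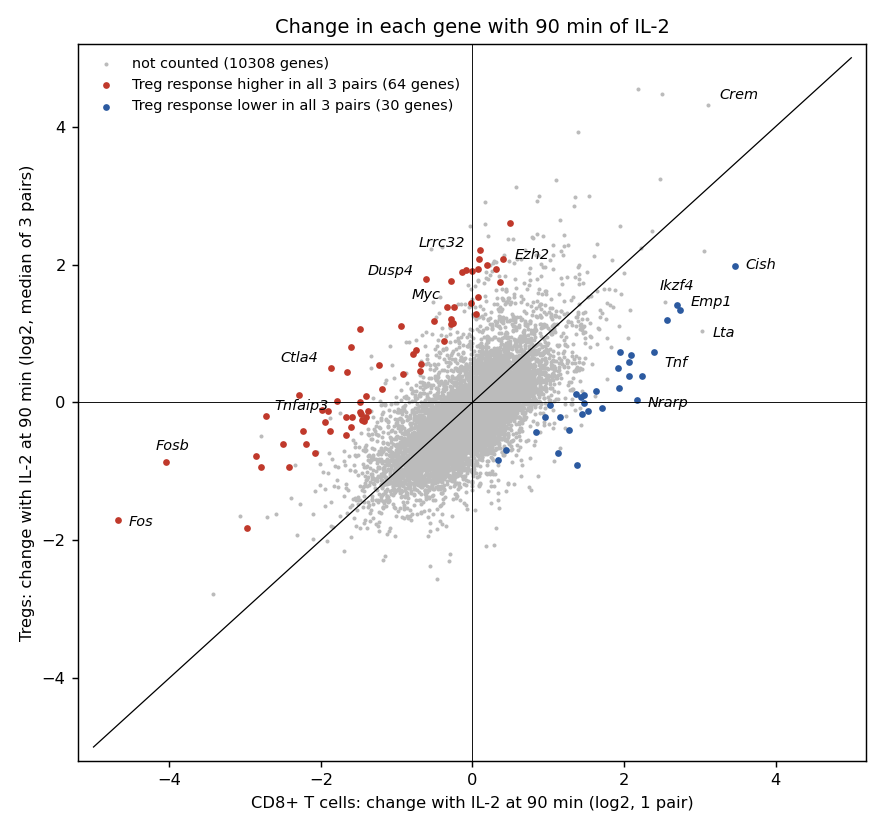
Log2 change of each gene with 90 min of IL-2 in CD8+ T cells (x axis, 1 pair) and in Tregs (y axis, median of 3 pairs), with equal changes on the diagonal. The 64 genes whose change was higher in Tregs are red, with Fos (-4.68 in CD8+ T cells) and Fosb (-4.04) at the far left, and the 30 with a lower change are blue, with Cish (3.46 in CD8+ T cells) at the far right.

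Of 39 IL-2 and STAT5 targets tested, the change was lower in Tregs for 3 (Cish, Tnf and Emp1) and higher for 1 (Myc). In Treg pairs 2 and 3 alone it was lower for 5 and higher for 11. Rises past 2-fold were found for 17 of the 39 in the CD8+ pair, for 6 in all 3 Treg pairs and for 15 in Treg pairs 2 and 3. The list holds genes that the paper names from this series, so these counts are not independent of the data. Cish was at 54.7, 65.5 and 54.0 RPKM in unstimulated Tregs and 1.87 in unstimulated CD8+ T cells, and its log2 change was 2.0999, 1.98 and 1.78 in the Treg pairs against 3.46 in the CD8+ pair. Tnf was at 9.87, 9.66 and 10.9 against 2.03 before IL-2 and changed by 0.72, 0.73 and 1.03 against 2.39. Emp1 changed by 0.85, 1.34 and 1.67 against 2.74. Each of the 3 thus moved up in every pair, and the rise in the CD8+ pair exceeded each Treg rise by more than 2-fold. Ikzf4, a Treg factor, did likewise: it was at 0.577 RPKM in unstimulated CD8+ T cells and changed by 2.71 there, against 1.62, 1.22 and 1.42 in Tregs. Nt5e changed by 2.0990 in CD8+ T cells against -0.13, 0.69 and 0.87. Lta was not counted, with changes of 3.90, 1.03 and 0.86 against 3.03, and Il2ra changed by 1.46, 0.36 and 0.46 against 1.14. For both, replicate 1 rose more than the CD8+ pair and replicates 2 and 3 less.

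Myc, Lrrc32 and Swap70 rose past 2-fold in every Treg pair and not in the CD8+ pair. Myc changed by 1.76, 2.01 and 1.73 in the Treg pairs and -0.28 in the CD8+ pair. Lrrc32 changed by 1.26, 1.9980 and 2.28 against 0.19. Swap70, a signalling protein on the Treg list, changed by 1.32, 1.94 and 2.04 against 0.32. The Treg changes of the 3 genes ran from 1.26 upward, and the CD8+ changes did not pass 0.32. Nrarp, an inhibitor of Notch signalling, had the opposite order and went from 1.73 to 11.3 in CD8+ T cells and from 2.07, 1.32 and 1.87 to 2.08, 2.17 and 1.95 RPKM in Tregs. Its levels in the cell types were thus nearly equal before IL-2. The log2 change of Il7r was -0.80, -0.84 and -0.98 in the Treg pairs and 0.33 in the CD8+ pair; this difference was not counted under the 3 other scalings. Mir142 and Snord35a, also among the 5 lowest differences, are small RNAs whose mature forms mRNA libraries are not made to capture, and Snord35a lies within Rpl13a.

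Of 25 immediate early genes, 10 fell past 2-fold in the CD8+ pair, against 4.37% of all genes. The difference in change was counted for 4, all higher in Tregs (Fos, Fosb, Egr1 and Tnfaip3), and for 13 in Treg pairs 2 and 3 alone, and the median difference was 1.30 against -0.14 over all 10402 genes. Falls past 2-fold were found for 2 of the 25 in all 3 Treg pairs and for 4 in pairs 2 and 3. Fos was at 146, 132 and 341 RPKM in unstimulated Tregs and 116 in unstimulated CD8+ T cells, and changed by -1.71, -1.11 and -2.72 against -4.68. Fosb changed by -1.22, 1.3978 and -0.87 against -4.04. Tnfaip3 (A20), an inhibitor of NF-κB, changed by -1.21, 0.57 and -0.19 against -2.73. Before IL-2 the 2 cell types thus had Fos levels within about 3-fold, and by 90 min more than 10-fold separated them. Ctla4, which was already higher in Tregs, changed by -0.61, 1.11 and 0.50 against -1.87.

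**Figure D5:**
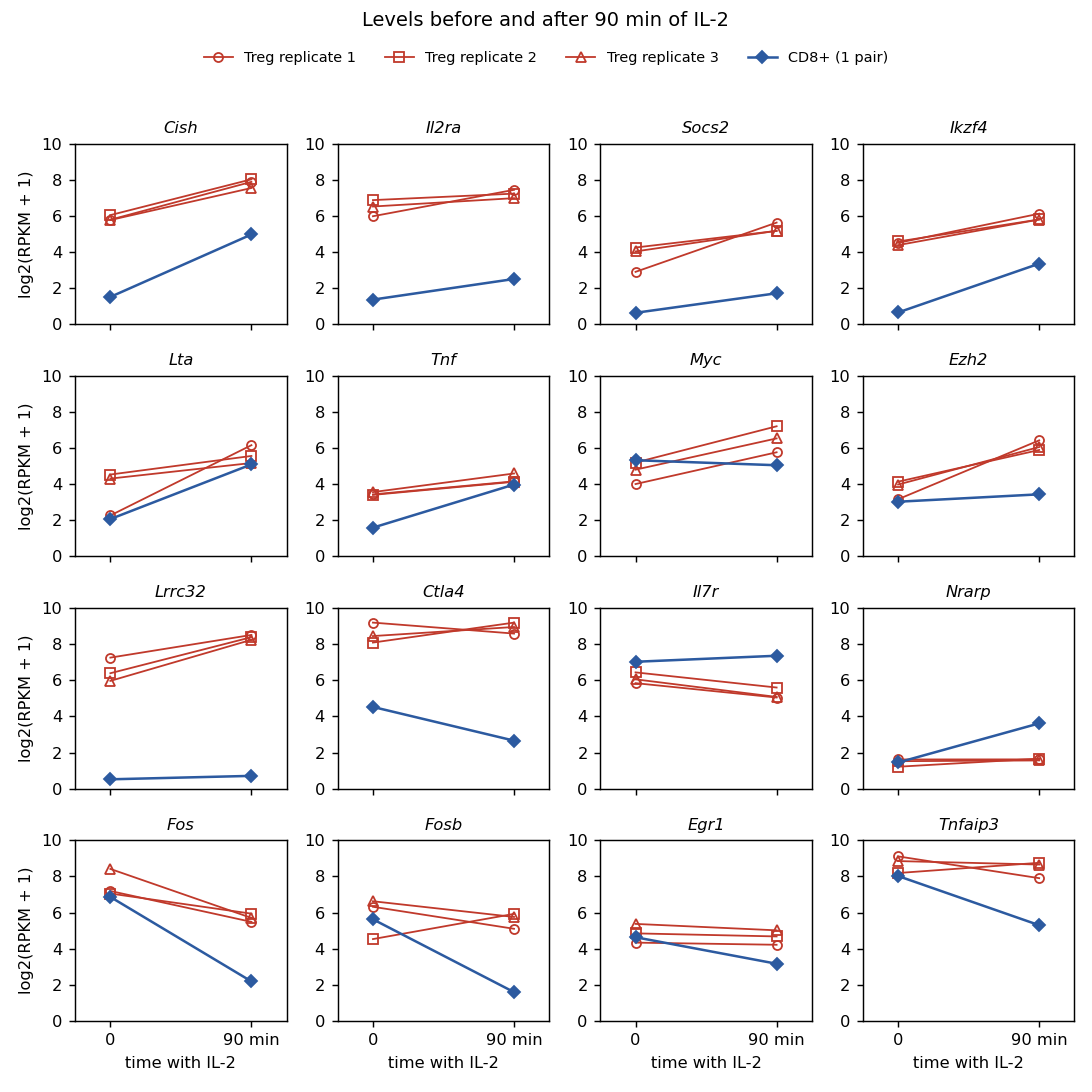
Levels (y axis, log2(RPKM + 1)) of 16 genes without cytokine and after 90 min of IL-2 (x axis) in the 3 same-numbered Treg pairs (red) and the CD8+ pair (blue). Cish, Tnf and Ikzf4 rise more steeply in the CD8+ pair, Myc and Ezh2 rise only in the Treg pairs by 2-fold or more, and Fos, Fosb and Tnfaip3 fall most in the CD8+ pair.

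The genes counted at 90 min of IL-2 were looked at in the other treated libraries, which are separate from those used above. With IL-2-REH for 90 min, 556 of the 628 (88.5%) were higher in Tregs, 80.2% of the 693 counted there, and 157 of the 221 (71%) were lower, 85.8% of 183. At 4 h of IL-2 the shares were 398 (63.4%, and 77.4% of 514) and 139 (62.9%, and 64.1% of 217). With IL-2-REH for 4 h they were 415 (66.1%, and 69.4% of 598) and 136 (61.5% of 221 in both lists), and 1 of the lower genes was counted as higher there. Cish was at 114 ± 15.6 RPKM (SD, n = 3) in Tregs and 2.47 in CD8+ T cells with IL-2-REH for 90 min, and at 165.6 ± 50.7 and 26.1 with IL-2 for 4 h. Il2ra was at 113 ± 8.08 and 2.81 with IL-2-REH for 90 min, and at 193 ± 90.4 and 6.34 with IL-2 for 4 h. In the CD8+ libraries Cish was therefore lower with IL-2-REH than with IL-2 at 90 min, a difference between single libraries that has no replicate check.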

How the data were processed

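RNA was taken from sorted Tregs and isolated CD8+ T cells of mouse spleen and lymph node, made into mRNA libraries and sequenced as 50 bp single-end reads. The authors mapped reads to mm10 with Bowtie2 2.2.6 and TopHat2 2.1.1 and kept only those that mapped uniquely. They deposited, for each transcript, read counts on exons and the RPKM computed from them. Of 31682 transcripts, the 1 with the most reads over the 20 libraries stood for each of 23992 symbols, of which 23642 were found in the RefSeq annotation. Ratios were taken on the log2(RPKM + 1) scale, which understates the change of low genes, for genes with a mean of at least 1 RPKM over the cell types, and counted when past 1 in all 3 Treg libraries. Genes were named if they were on any of 20 lists, among the 10 highest or 10 lowest counted ratios, or among the 5 highest or 5 lowest differences in response, with a minimum of 5 RPKM. Results for a few of these genes are not reported here. The members and lists were chosen with earlier results of these data known. Counts were also tested with edgeR 4.0.16 (quasi-likelihood) and DESeq2 1.42.0 in R 4.3.3, and each method was run on simulated data. There the lone CD8+ library was made to vary like the Treg libraries, so the runs cannot check that assumption. Python 3.11.15 with numpy 2.4.6 and pandas 2.3.3 did the rest. No label says that the libraries came from separate mice, so p-values measure only the spread between the Treg samples, which may be technical. Alternatives were another pseudocount, filters, ratio thresholds, scalings, transcripts, tests and each Treg replicate left out.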

Additional observations from a re-analysis of the deposited data

Results flagged for a closer look

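Of 316 genes that were named or added and tested for a response, 27 had a log2 change with 90 min of IL-2 in the CD8+ pair opposite in sign to the change in all 3 Treg pairs, as did 421 of all 10402 genes (4.05%). The difference was not tested, as there is 1 CD8+ pair, and many of these changes were close to 0. Some of the 316 were named for their difference in response or added after their values were seen. That choice itself favours genes that differ between the cell types. Of the 27, 21 went up in Tregs and 6 went down. Myc changed by -0.2773 in the CD8+ pair and by 1.73 to 2.01 in Tregs, Nfil3 by -0.1523 and by 0.62 to 2.54, and Atf3 by -0.004219 and by 0.65 to 2.75. Txnrd1 changed by -0.0164 in the CD8+ pair and by 1.37 to 1.79 in Tregs, and Atp1b1 by -0.2878 and by 0.99 to 1.67. For these 5 genes the CD8+ change was smaller in size than the lowest Treg change. Dusp4 changed by -0.6158 in the CD8+ pair and by 0.55 to 2.99 in Tregs, Gm20594, a predicted gene, by -1.486 and by 0.15 to 1.18, and Btla, an inhibitory receptor, by -1.661 and by 0.16 to 0.50. For the latter pair the CD8+ change was larger in size than every Treg change, and for Dusp4 it was larger than the smallest. Of the other immediate early genes, Ier2 changed by -0.36 in the CD8+ pair and by 0.07 to 0.85 in Tregs and Ier3 by -0.2255 and by 0.32 to 0.93. Among surface proteins, Cd200 changed by -0.1785 in the CD8+ pair and by 0.59 to 2.05 in Tregs, Cd86 by -0.382 and by 0.45 to 1.13, Ccr6 by -0.09241 and by 0.06 to 1.35, Il18r1 by -0.1181 and by 0.68 to 1.01, Il18rap by -0.4533 and by 0.14 to 0.59, and Itgb3 by -0.1474 and by 0.49 to 1.11. Among transcription factors, Gata3 changed by -0.6181 in the CD8+ pair and by 0.38 to 0.65 in Tregs, Lef1 by -0.184 and by 0.04 to 0.26, and Maf by -0.2101 and by 0.04 to 0.47. Btg1 changed by -0.5211 in the CD8+ pair and by 0.13 to 0.51 in Tregs and Lcn4 by -0.7509 and by 0.24 to 0.65. The 6 genes that went down in Tregs and up in the CD8+ pair included Mir142, which changed by 1.124 in the CD8+ pair and by -1.32 to -0.54 in Tregs, and Il7r, which changed by 0.3333 and by -0.98 to -0.80. Car2 changed by 0.08174 in the CD8+ pair and by -1.46 to -0.03 in Tregs, Ccne1 by 0.2428 and by -0.54 to -0.05, Tgfbr2 by 0.275 and by -0.166 to -0.003083, and Tnfsf11 by 0.1081 and by -0.76 to -0.34.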

How the results depend on the processing

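No count changed direction. With a minimum of 5 RPKM, 418 genes were higher and 143 lower at 90 min, 235 and 105 before IL-2, and 19 had a lower change in Tregs. With ratios past 2 the counts were 178 and 46, 103 and 48 before IL-2, 4 and 0 for the change, and 59 and 16 among the list genes. A pseudocount of 0.1 RPKM gave 63 genes with a lower change. Before IL-2, 285 genes were lower with TMM scaling and 291 with DESeq2's size factors. At 90 min, edgeR on the 4 libraries gave 813 higher and 344 lower genes, DESeq2 gave 1114 and 464, and edgeR on 20 libraries gave 2680 genes at an unadjusted p under 0.05. Leaving out a Treg replicate can only add genes to a count that requires all of them, and gave 660 to 733 higher and 239 to 287 lower genes at 90 min, 457 to 576 and 197 to 251 before IL-2, 99 to 107 and 30 to 35 among list genes, and 73 to 238 and 37 to 188 for the change. The widest values of the change, 238 and 188, came without replicate 1, and 47 genes had a lower change without replicate 3. Counts of changes without replicate 1 for 2 gene lists and for rises and falls in Tregs were added after the data were seen. The cause was not tested. Of 139 named genes counted, 134 stayed counted with TMM scaling and 97 by edgeR over 20 libraries. No paired analysis was possible because the cell types share only replicate number 1. With 1 CD8+ library, no spread of CD8+ T cells could be measured at any depth.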

Other observations

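Gene families outside the lists were counted by their symbols, chosen after their values were seen. Over all genes tested, 6.18% were higher in Tregs and 2.18% were lower, together 8.36%. None of 80 cytosolic ribosomal protein genes was counted, with a median log2 ratio of -0.60, and none of 37 proteasome, 54 translation initiation factor or 36 complex I genes. Of 15 dual-specificity phosphatases, which switch off MAP kinases, 5 were higher in Tregs (Dusp1, Dusp4, Dusp5, Dusp10 and Dusp14) and none was lower. Of 9 regulators of G protein signalling, 4 were higher (Rgs1, Rgs2, Rgs9 and Rgs16) and none was lower. Of 157 solute carriers, 12 were higher and 5 were lower, beside 6.18% and 2.18% of all genes. None of 24 class I MHC genes was counted, with a median log2 ratio of 0.62. Of 16 Ifit and Oas type interferon genes, 1 (Isg15) was higher, close to the share of 6.18% over all genes. With libraries centred on their medians, TMM scaling or DESeq2's size factors, the same phosphatases and regulators were counted, and 10 to 14 solute carriers were higher and 5 to 6 lower. The median of the 15 phosphatases was 0.06 and turned negative, to between -0.16 and -0.11, under these 3 scalings.

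A few more genes, also chosen after their values were seen, changed differently between the cell types with 90 min of IL-2. Ezh2, the methyltransferase of Polycomb complex 2, was at 8.02, 16.7 and 14.9 RPKM in unstimulated Tregs and 85.7, 58.9 and 66.1 after 90 min, and at 7.20 and 9.89 in CD8+ T cells. Its level was therefore within about 3-fold between the cell types at first and more than 5-fold apart with IL-2. Txnrd1 (thioredoxin reductase) changed by 1.79, 1.37 and 1.44 on the log2 scale in Tregs and -0.02 in CD8+ T cells. Atp1b1, a sodium pump subunit, changed by 1.67, 0.99 and 1.22 against -0.29. Smurf2, a ubiquitin ligase of the TGF-β pathway, had the opposite order, with 0.08, -0.09 and 0.19 against 1.44. Sla, an adaptor that dampens antigen receptor signals, changed by -0.48, 0.39 and 0.11 against -2.29.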
